A study of Rattus norvegicus with 23 samples.

Results

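The genes described here are 7 kidney genes of water handling: the water channel genes Aqp1, Aqp2, Aqp3, Aqp4 and Aqp6, the vasopressin V2 receptor gene Avpr2, and Fxyd4, which encodes the sodium pump regulator also called CHIF. They were chosen by name, and every probe set whose only gene symbol was one of these names was taken. This gave 11 probe sets for 7 of the 14217 genes measured. A gene with several probe sets was represented by the one with the highest mean over all arrays, and the others were examined as a check (2 probe sets for Aqp1, 3 for Aqp4 and 2 for Avpr2). Expression was measured in 23 kidney samples of male rats on Affymetrix arrays, 1 array per sample. The rats came from the Sabra strains SBN/y, which is known to resist salt-induced hypertension, and SBH/y, which is known to be prone to it, and all ate standard chow with free access to water. Surgery followed weaning, and tissue was taken 3 months later, at 4 months of age. The groups were sham-operated SBN/y rats with 2 kidneys (n = 5), SBN/y rats with 1 kidney after uninephrectomy (n = 6), sham-operated SBH/y rats with 2 kidneys (n = 6) and SBH/y rats with 1 kidney after uninephrectomy (n = 6). The labels do not say which kidney of a sham-operated rat was used, how much of it, or whether cortex and medulla were kept apart. By its title the series deals with the pathophysiology of proteinuria, and its design asks how the strains differ and how each responds to the loss of a kidney.

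In the collecting duct, vasopressin binds the V2 receptor on the basolateral side of the principal cell. The receptor raises cyclic AMP through the Gs protein, protein kinase A phosphorylates aquaporin 2, and vesicles carrying this channel fuse with the apical membrane. Water then leaves the cell through aquaporins 3 and 4 in the basolateral membrane, drawn by the tonicity of the medulla. Cyclic AMP also raises transcription of Aqp2. Aquaporin 1 serves the proximal tubule and the thin descending limb, and aquaporin 6 sits in intracellular vesicles of intercalated cells.

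Sequences upstream of 3 of these genes are shown because the levels of Aqp2 and Fxyd4 varied together across arrays, while Aqp3 had the opposite strain difference. Each is the stretch of 250 bases before the gene's start in the RefSeq annotation of the rat assembly GRCr8, which is not a Sabra genome, printed 5' to 3' on the gene's own strand. Capitals mark the motif matches counted here.
Aqp2: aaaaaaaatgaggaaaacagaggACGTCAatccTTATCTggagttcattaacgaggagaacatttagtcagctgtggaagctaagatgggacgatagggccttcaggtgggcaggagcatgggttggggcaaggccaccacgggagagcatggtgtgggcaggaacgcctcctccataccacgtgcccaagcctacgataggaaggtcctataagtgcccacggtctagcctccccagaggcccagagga
Aqp3: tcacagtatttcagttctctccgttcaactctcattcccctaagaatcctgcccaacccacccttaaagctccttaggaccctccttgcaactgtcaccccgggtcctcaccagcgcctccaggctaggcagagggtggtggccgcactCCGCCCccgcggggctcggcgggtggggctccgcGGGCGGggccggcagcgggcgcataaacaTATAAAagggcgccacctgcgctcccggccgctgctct
Fxyd4: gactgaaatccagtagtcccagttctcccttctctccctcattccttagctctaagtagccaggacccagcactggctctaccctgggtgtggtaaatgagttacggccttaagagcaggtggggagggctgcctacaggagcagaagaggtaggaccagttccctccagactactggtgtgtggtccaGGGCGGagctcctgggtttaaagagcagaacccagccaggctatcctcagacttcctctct
They lie at chr7:132590036-132590285 on the plus strand, chr5:61040684-61040933 on the minus strand and chr4:152786046-152786295 on the minus strand. All 7 genes matched an entry of the RefSeq table, Aqp4 with 2 starts, which gave 8 upstream sequences. The cyclic AMP response element core, TGACGT on either strand, was found in the Aqp2 sequence, 227 bases before the start, and in no other of the 8. It was present in 6.95% of 33469 upstream sequences of the same length. The full palindrome TGACGTCA, which contains the core, was in 1.59% of them and in none of the 8, and the AP-1 motif (TGACTCA or TGAGTCA) was in 4.05% and in none of the 8. A GATA motif (AGATAA or TGATAA) was found in the Aqp2 sequence, 217 bases before the start, and in 16.9% of all. The TATAAA motif, present in 12.9% of all, was found in the sequences of Aqp1, Aqp3 (38 bases before the start) and Avpr2. The GC box GGGCGG, present in 30.5% of all, was found for Aqp1, Aqp3, Aqp4 and Fxyd4. The core of the tonicity element, TGGAAA, was in 19.7% of all and was found for Aqp4 and Aqp6. These are matches of letters on either strand, and none was tested for binding. Aqp2 and Aqp6 are neighbours on rat chromosome 7 with only Aqp5 between them, and Aqp3 is next to Aqp7 on chromosome 5.

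The deposited values are log2 expression values, so a difference of 1 is a doubling. They ran from 1.89 to 13.67, with a median of 4.66 over all probe sets. Arrays of the same group correlated at 0.990 to 0.997, and no pair of arrays held identical values. A mean for each of the 4 groups was fitted to all 31042 probe sets with limma, and a gene is called higher or lower where its Benjamini-Hochberg adjusted p over all of them was under 0.05. A log2 difference is given with its standard error (SE), and a group mean with its SD. The difference between the GAPDH control probes at the 3' and 5' ends, a sign of RNA quality, moved with the groups, from a mean of 0.35 ± 0.03 log2 (SD) for SBN/y with both kidneys to 0.53 ± 0.11 for SBH/y after uninephrectomy, with 0.45 ± 0.04 and 0.46 ± 0.06 for the groups between. Its part in the differences below was examined as a covariate and is given where it moved a call. Havcr1, a marker of injured proximal tubule, rose after uninephrectomy by 3.20 ± 0.24 log2 (SE) in SBH/y and by 1.37 ± 0.25 in SBN/y. Probe sets of different genes bind with different strength, so levels are compared between samples and never between genes.

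The means of Aqp1, Aqp2, Aqp3, Aqp4, Avpr2 and Fxyd4 were lower with 1 kidney than with 2 in both strains. Of all genes, 48.5% in SBH/y and 47.9% in SBN/y had a lower mean with 1 kidney. Aqp1, of another part of the nephron, measured -0.15 in SBH/y and -0.06 in SBN/y, neither called. With the GAPDH covariate its SBN/y value was 0.015. SBH/y kidneys held more Aqp2 and Fxyd4 and less Aqp3 than SBN/y kidneys with either number of kidneys. In SBH/y after uninephrectomy, 2 of the 7 genes were called, Aqp4 and Fxyd4, both lower, where 5.04% of all probe sets were called in either direction and 1.97% were called lower. The median difference of the 7 genes was -0.16 in SBH/y and -0.28 in SBN/y, beside 0.00 for all genes in both. In SBN/y, 0 of 7 were called by limma, where 0.168% of all probe sets were called, and 3 had an unadjusted p under 0.05 (Aqp2, Avpr2 and Fxyd4), against 7.62% of all probe sets. Averaged over both strains, Aqp4, Avpr2 and Fxyd4 were called lower with 1 kidney (3 of 7, against 4.52% of all probe sets in either direction and 1.88% lower). Between the strains, Aqp2, Aqp3 and Fxyd4 were called with 2 kidneys and again with 1 (2 higher and 1 lower in SBH/y each time). With 2 kidneys 9.07% of all probe sets were called, 4.32% higher and 4.75% lower, and with 1 kidney 14.0% were called, 7.55% higher and 6.43% lower. For the difference between the strains' responses to uninephrectomy, 0 of 7 were called by limma. By the probe set with the highest mean of each gene, 0 had an unadjusted p under 0.05. Among all probe sets 0.254% were called and 8.06% were under 0.05 unadjusted. With 1 probe set per gene, as the 7 genes were counted, larger shares of all genes were called. These were 7.16% after uninephrectomy in SBH/y, 0.253% in SBN/y and 6.41% averaged. Between the strains they were 11.0% with 2 kidneys and 17.7% with 1, and 0.408% for the difference between the responses. In RNA of bulk tissue, fewer cells of a type and less RNA per cell cannot be told apart.

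**Figure D1:**
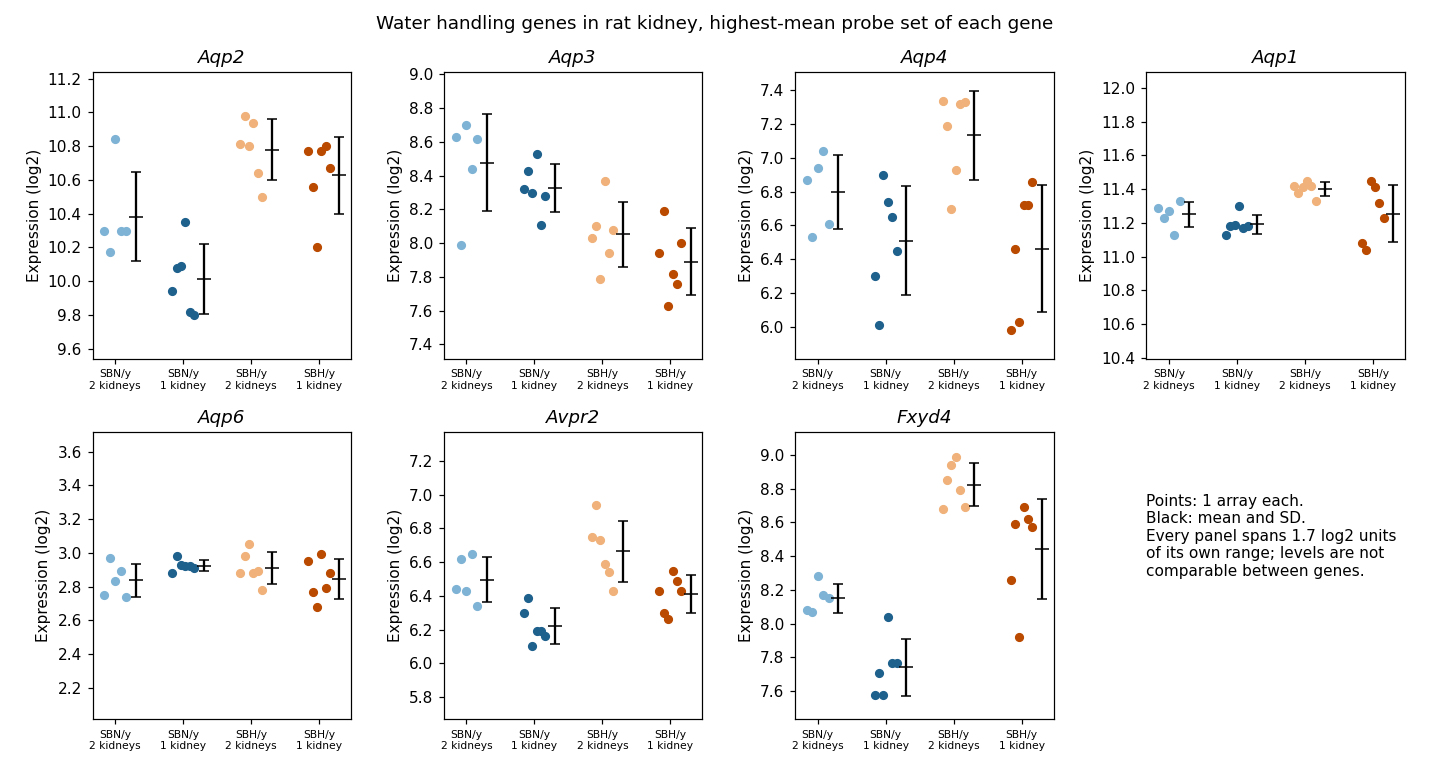
Expression of the 7 genes on a log2 axis in the 4 groups, with 1 point per array and the mean and SD in black; each panel spans the same number of log2 units over its own range. The Fxyd4 panel shows every SBH/y array with 2 kidneys (8.68 to 8.99) above every SBN/y array, and the Aqp6 panel shows all arrays near 2.9.

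Aqp2, the vasopressin-regulated water channel of the apical membrane, differed between the strains. With 2 kidneys, the SBN/y arrays read 10.30, 10.17, 10.84, 10.30 and 10.30, a mean of 10.38 ± 0.26 (SD, n = 5). The SBH/y arrays with 2 kidneys ran from 10.50 over a median of 10.81 to 10.98, a mean of 10.78 ± 0.18 (SD, n = 6). All 6 lay above the SBN/y mean, and the ranges overlapped through the SBN/y array at 10.84. SBH/y was higher by 0.40 ± 0.12 log2 (SE), which is 31.7% (adjusted p = 0.0326, limma). This call was close to the threshold. It was lost when any of SBN/y replicates 1, 2, 4 or 5 or SBH/y replicates 1, 2, 3 or 4 with 2 kidneys was left out (0.34 to 0.39, adjusted p between 0.0528 and 0.103) and with a trended and robust variance (adjusted p = 0.0624).

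With 1 kidney the strain difference in Aqp2 was 0.61 ± 0.11 log2 (SE), or 53.1% (adjusted p = 0.000253, limma), and the call held in every alternative fit. The SBN/y arrays with 1 kidney ran from 9.80 over a median of 10.01 to 10.35, and the SBH/y arrays from 10.20 over 10.72 to 10.80. Of the 6 SBH/y arrays, 5 lay above all SBN/y arrays, and replicate 3 at 10.20 lay within their range. The response of Aqp2 to uninephrectomy was not called in either strain. In SBN/y the difference was -0.37 ± 0.12 (-22.6%; adjusted p = 0.319, limma), with 5 of 6 arrays below all 2-kidney arrays. In SBH/y it was -0.15 ± 0.11, with a 95% confidence interval of -0.39 to 0.08 (adjusted p = 0.589). The averaged response was -0.26 ± 0.08 (adjusted p = 0.0695, limma). It passed the threshold when dim probe sets were left out (adjusted p = 0.0474) and without SBN/y replicate 4 with 1 kidney (adjusted p = 0.0308) or SBH/y replicate 6 with 2 kidneys (adjusted p = 0.0419). In order of means, Aqp2 was highest in SBH/y with 2 kidneys, then SBH/y with 1, SBN/y with 2 and SBN/y with 1, and the ranges of all neighbours in that order overlapped.

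Avpr2, the receptor that starts the vasopressin response of the principal cell, was lower with 1 kidney in both strains by nearly the same amount. The SBN/y arrays with 2 kidneys read 6.44, 6.62, 6.43, 6.65 and 6.34, and those with 1 kidney ran from 6.10 over 6.19 to 6.39. The SBH/y arrays ran from 6.43 over 6.66 to 6.94 with 2 kidneys and from 6.26 over 6.43 to 6.55 with 1. Each of the 6 arrays with 1 kidney lay below the mean of the 2-kidney arrays of its strain, and the ranges overlapped in both strains. The difference was -0.28 ± 0.08 in SBN/y (adjusted p = 0.228, limma) and -0.25 ± 0.08 in SBH/y (adjusted p = 0.0548). Averaged over the strains, Avpr2 fell by 16.7% (-0.26 ± 0.06 log2, SE; adjusted p = 0.00422). The difference between the responses was 0.03 ± 0.11, with a 95% confidence interval of -0.20 to 0.25.

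The SBH/y difference in Avpr2 passed the threshold in several alternative fits: a repeated quantile normalization (adjusted p = 0.0482), a trended and robust variance (0.0437), the removal of dim probe sets (0.0339), 1 probe set per gene (0.0359), and without SBH/y replicate 5 (0.0456) or 6 (0.0206) with 2 kidneys or replicate 4 (0.0398) with 1. The averaged call was lost with the GAPDH covariate (-0.24, adjusted p = 0.0553). The other Avpr2 probe set had group means between 3.03 and 3.11. These are within the range of 2.14 to 3.13 of the 4 probe sets for Xist, a female-specific transcript that serves here as a reference for absent RNA in male tissue, and its averaged difference was -0.02 ± 0.06. Avpr2 was 0.16 ± 0.08 higher in SBH/y than in SBN/y with 2 kidneys (adjusted p = 0.258, limma) and 0.19 ± 0.08 higher with 1 (adjusted p = 0.109), neither of them called.

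Aqp3, a basolateral channel of the principal cell that passes glycerol as well as water, was lower in SBH/y than in SBN/y with either number of kidneys. The SBN/y arrays with 2 kidneys read 8.63, 7.99, 8.70, 8.44 and 8.62, a mean of 8.48 ± 0.29 (SD, n = 5). The SBH/y arrays with 2 kidneys ran from 7.79 over 8.06 to 8.37, a mean of 8.05 ± 0.19 (SD, n = 6). The SBH/y arrays all lay below the SBN/y mean, and the ranges overlapped because SBN/y replicate 2 was as low as 7.99. The difference was -0.42 ± 0.11 (-25.5%; adjusted p = 0.0150, limma). The call was lost without SBN/y replicate 1 (-0.39, adjusted p = 0.0502) or replicate 3 (-0.37, adjusted p = 0.0602) with 2 kidneys.

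With 1 kidney, Aqp3 ran from 8.11 over 8.31 to 8.53 in SBN/y and from 7.63 over 7.88 to 8.19 in SBH/y, where 5 of 6 arrays lay below all SBN/y arrays. The difference was -0.44 ± 0.11 (-26.2%; adjusted p = 0.00539, limma), a call that held in every alternative fit. After uninephrectomy, Aqp3 differed by -0.15 ± 0.11 in SBN/y (adjusted p = 0.871) and by -0.16 ± 0.11 in SBH/y (adjusted p = 0.539), and neither was called. The difference between these responses was -0.01 ± 0.16, with an interval of -0.34 to 0.31. Between the strains, Aqp3 alone of the 7 genes was called lower in SBH/y, while Aqp2, also a principal cell gene, was called higher. Within each array, the Aqp2 value minus the Aqp3 value lay between 1.53 and 2.19 in the 11 SBN/y arrays and between 2.36 and 3.04 in the 12 SBH/y arrays, so the strains did not overlap. This pair was singled out after its values were seen, so no test is given, and the difference carries the unequal response of both probe sets.

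**Figure D2:**
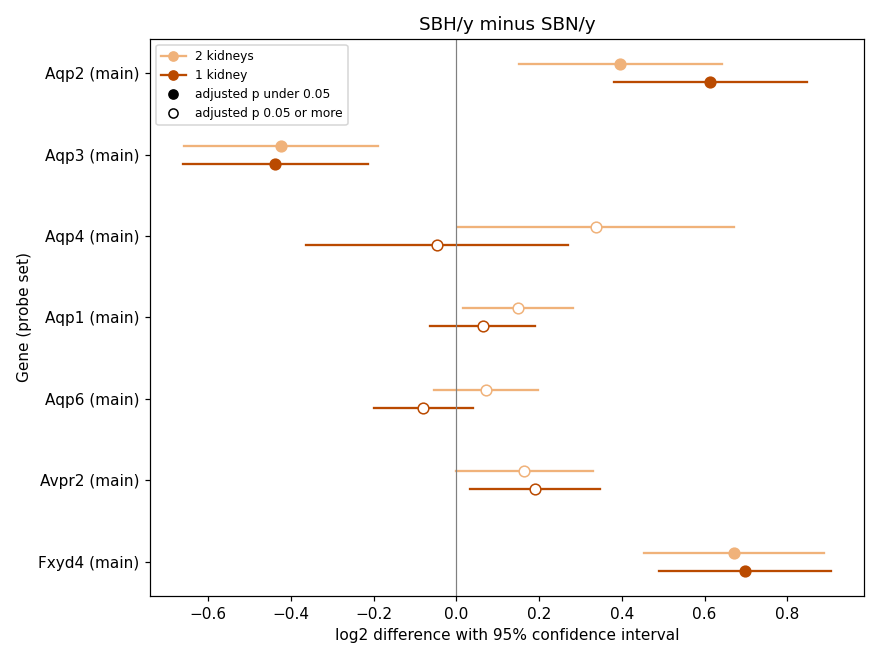
SBH/y minus SBN/y log2 differences of the 7 genes with 95% confidence intervals, with 2 kidneys (light) and with 1 kidney (dark); filled points have an adjusted p under 0.05. Aqp2 and Fxyd4 lie to the right of 0 and Aqp3 to the left at both kidney numbers.

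Aqp4, the other basolateral water channel of the principal cell, had the largest uninephrectomy difference of the 7 genes, in SBH/y. The SBH/y arrays with 2 kidneys ran from 6.70 over 7.25 to 7.34, a mean of 7.14 ± 0.26 (SD, n = 6). Those with 1 kidney ran from 5.98 over 6.59 to 6.86, a mean of 6.46 ± 0.38 (SD, n = 6). All 6 arrays with 1 kidney lay below the 2-kidney mean and 3 of them below all 2-kidney arrays. Aqp4 thus fell by 37.3% (-0.67 ± 0.15 log2, SE; 95% interval -0.99 to -0.36; adjusted p = 0.00759, limma), and the call held in every alternative fit, with adjusted p between 0.00297 and 0.0323.

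In SBN/y, Aqp4 read 6.87, 6.53, 6.94, 7.04 and 6.61 with 2 kidneys and ran from 6.01 over 6.55 to 6.90 with 1. These groups overlapped, and the difference of -0.29 ± 0.16 was not called (adjusted p = 0.753, limma). The response in SBH/y minus that in SBN/y was -0.38 ± 0.22, with an interval of -0.84 to 0.08 (adjusted p = 0.717), so the strains were not shown to differ in it. Averaged over strains, Aqp4 fell by 28.3% (-0.48 ± 0.11; adjusted p = 0.0100). The strain differences were 0.34 ± 0.16 with 2 kidneys (adjusted p = 0.249) and -0.05 ± 0.15 with 1 (adjusted p = 0.912).

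The other 2 probe sets for Aqp4 were dim. The brighter of them had group means between 3.33 and 3.73 and the dimmer between 2.89 and 3.19, which reaches into the Xist range. In SBH/y both were lower with 1 kidney than with 2 with no overlap of the ranges, where 2.84% of all probe sets had ranges apart. The differences were -0.40 ± 0.10 (adjusted p = 0.0100, limma) and -0.29 ± 0.08 (adjusted p = 0.0187). In SBN/y they were -0.05 ± 0.10 and 0.02 ± 0.08. The response in SBH/y minus that in SBN/y was -0.35 ± 0.14 for the brighter, with an interval of -0.64 to -0.07 (unadjusted p = 0.0169, adjusted p = 0.451, limma). For the dimmer it was -0.32 ± 0.11, with an interval of -0.54 to -0.09 (unadjusted p = 0.00779, adjusted p = 0.338, limma). Both intervals left out 0, unlike that of the main probe set, and neither difference was called. With the brighter of these in place of the main probe set, the averaged difference was -0.23 and missed the threshold (adjusted p = 0.0607). Over the 23 arrays the main Aqp4 probe set correlated with them at r = 0.645 and 0.651, and within groups at 0.379 and 0.422.

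Fxyd4, which encodes a small membrane protein that raises the sodium affinity of the sodium pump in the collecting duct, had the largest strain difference of the 7 genes. The SBN/y arrays with 2 kidneys read 8.08, 8.07, 8.28, 8.17 and 8.15, a mean of 8.15 ± 0.09 (SD, n = 5). The SBH/y arrays with 2 kidneys ran from 8.68 over 8.82 to 8.99, a mean of 8.82 ± 0.13 (SD, n = 6). The groups did not overlap, where 7.57% of all probe sets had ranges apart. SBH/y was higher by 0.67 ± 0.11 log2 (SE), or 59.2% (adjusted p = 4.87e-05, limma). With 1 kidney the difference was 0.70 ± 0.10, or 62.2% (adjusted p = 9.25e-06), with 5 of 6 SBH/y arrays above all SBN/y arrays. Both calls held in every alternative fit.

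Fxyd4 was also lower with 1 kidney in both strains. In SBN/y the arrays with 1 kidney ran from 7.58 over 7.74 to 8.04, all below the 2-kidney arrays, where 1.26% of all probe sets had ranges apart. In SBH/y they ran from 7.92 over 8.58 to 8.69, with 5 of 6 below all 2-kidney arrays. The difference was -0.41 ± 0.11 in SBN/y (-24.7%; adjusted p = 0.151, limma) and -0.38 ± 0.10 in SBH/y (-23.2%; adjusted p = 0.0232). Averaged over strains, Fxyd4 fell by 23.9% (-0.39 ± 0.07; adjusted p = 0.00126), and this call held in every alternative fit. The difference between the responses was 0.03 ± 0.15, with an interval of -0.27 to 0.33.

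Within 1 strain the Fxyd4 calls changed with single arrays. The SBH/y call was lost without SBH/y replicate 3 (adjusted p = 0.0521) or 4 (0.0652) with 2 kidneys or replicate 1 (0.0740) or 3 (-0.28, 0.0515) with 1 kidney, and with only the groups compared in the fit (0.0801). The SBN/y difference passed the threshold with only the groups compared in the fit (adjusted p = 0.0435) and without SBH/y replicate 3 with 1 kidney (0.0317).

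**Figure D3:**
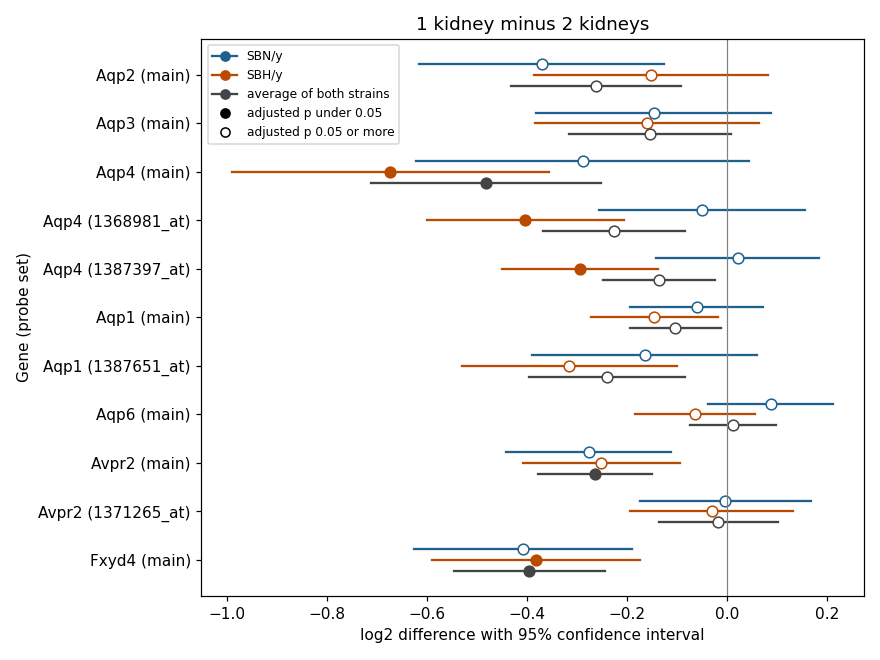
Differences between 1 kidney and 2 kidneys on the log2 scale for all 11 probe sets, with 95% confidence intervals, in SBN/y, in SBH/y and averaged; filled points have an adjusted p under 0.05. The main probe sets of Aqp4, Avpr2 and Fxyd4 have filled averaged points at -0.48, -0.26 and -0.39.

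Aqp1, the constitutive water channel of the proximal tubule and thin descending limb, showed small differences. It read 11.29, 11.23, 11.27, 11.13 and 11.33 in SBN/y with 2 kidneys and ran from 11.13 over 11.18 to 11.30 with 1. It ran from 11.33 over 11.41 to 11.45 in SBH/y with 2 kidneys and from 11.04 over 11.28 to 11.45 with 1. The arrays of uninephrectomized SBH/y rats spread widest, with an SD of 0.17 against 0.04 to 0.07 in the other groups. No contrast was called: the difference after uninephrectomy was -0.15 ± 0.06 in SBH/y (adjusted p = 0.221, limma) and -0.06 ± 0.06 in SBN/y (adjusted p = 0.926), and SBH/y minus SBN/y with 2 kidneys was 0.15 ± 0.06 (adjusted p = 0.186). The second Aqp1 probe set gave -0.32 ± 0.10 in SBH/y (adjusted p = 0.0854) and correlated with the first at r = 0.871 over the 23 arrays. Within groups, Aqp1 correlated with the GAPDH difference at r = -0.52, and with that difference as a covariate the strain difference with 2 kidneys was 0.23 (adjusted p = 0.0341).

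Aqp6, the vesicle channel of intercalated cells, was not measured above background. Its single probe set had group means between 2.84 and 2.92, inside the Xist range and below the median probe set on all 23 arrays. No contrast was called (averaged uninephrectomy difference 0.01 ± 0.04, adjusted p = 0.948, limma), which says nothing about the gene at this signal.

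One array, replicate 3 of SBH/y with 1 kidney, was the lowest of its group for Aqp2 (10.20), Aqp3 (7.63), Avpr2 (6.26), Fxyd4 (7.92) and Aqp6 (2.68), and the second lowest for Aqp4 (6.03). For Aqp1 it was the highest (11.45). Without it the Aqp2 difference after uninephrectomy in SBH/y moved from -0.15 to -0.07, and that of Fxyd4 from -0.38 to -0.28.

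Some pairs of principal cell genes correlated across arrays, but within groups none did so more strongly than a pair with a background probe set. Over the 23 arrays, which share 1 normalization and carry the group differences, Aqp2 and Fxyd4 correlated at Pearson r = 0.890. After removal of group means r was 0.632, or 0.480 without the 2 arrays farthest from the median in Aqp2. For each pair these 2 arrays were picked by the first-named gene alone. Aqp2 and Aqp3 correlated at r = -0.251 over all arrays and at 0.514 within groups (0.381 without the 2 farthest arrays). Their strain differences ran in opposite directions. Aqp2 and Avpr2 correlated at 0.693 over all arrays and 0.342 within groups, and Avpr2 and Fxyd4 at 0.718 and 0.232. Aqp4 correlated with Fxyd4 at 0.550 and 0.390 and with Avpr2 at 0.453 and -0.089. Aqp1, of another part of the nephron, correlated with Fxyd4 at 0.558 over all arrays and at 0.004 within groups. Without the 2 arrays farthest in Aqp1 the value within groups was 0.658, so it changed with 2 arrays picked by Aqp1 alone. The highest value within groups was that of Aqp6 with Avpr2, at 0.709, or 0.663 without the 2 arrays farthest in Aqp6. Over all arrays this pair correlated at 0.326. The Aqp6 probe set was at background, so values of this size within groups also arose without measured expression of a gene. Whether the principal cell genes were regulated together was not tested. These values describe the arrays, and no test is attached to them.

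**Figure D4:**
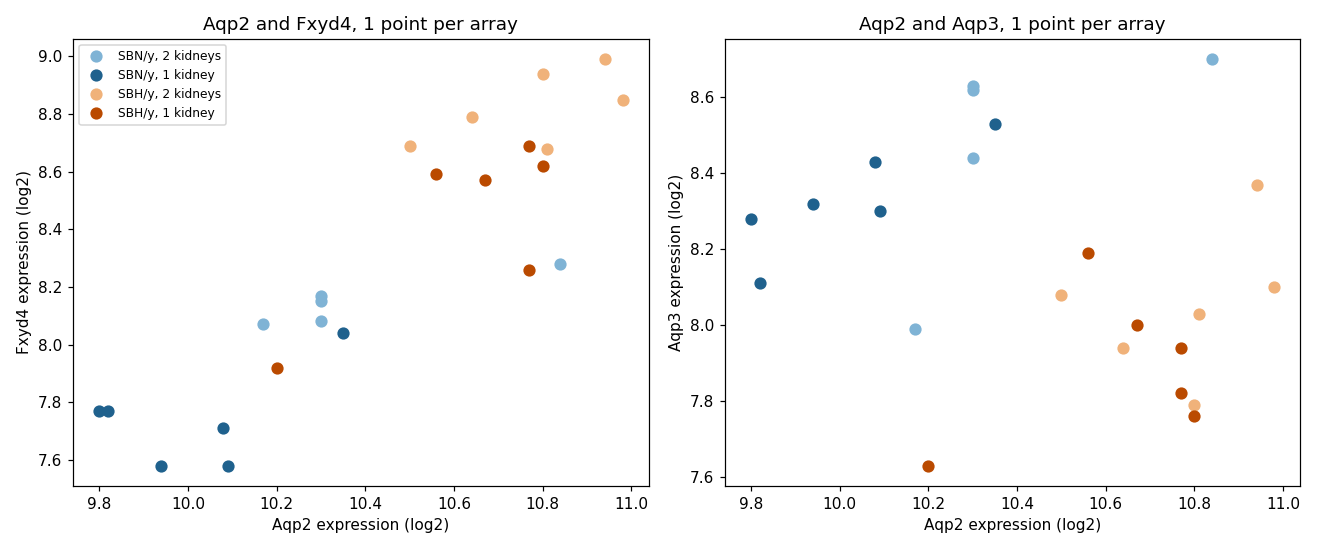
Array values of Aqp2 (x axis, log2) against Fxyd4 (left) and Aqp3 (right), 1 point per array, coloured by group. On the left the arrays follow 1 rising band (r = 0.890), and on the right the strains form separate clouds (r = -0.251 over all arrays, 0.514 within groups).

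Among all named genes, the profile most like that of Aqp2 over the 23 arrays was that of Nupr1 (r = 0.894), followed by Fxyd4 (0.890) and Grem1 (0.878). For Fxyd4 the nearest were S100a1 (0.931), the kidney cadherin gene Cdh16 (0.927) and Isyna1 (0.918), which encodes an enzyme of inositol synthesis. For Aqp3 they were Sdhd (0.891), Map2 (0.887, with a mean level of 3.50) and Plvap (0.871), for Aqp4 Plet1 (0.820), Tmem50b (0.816) and Sema3e (0.815), and for Avpr2 Slc22a17 (0.804), Ly6al (0.783) and C13h1orf116 (0.764). For Aqp1 they were the ATP synthase gene Atp5pb (0.807), Slc27a2 (0.786) and Selenbp1 (0.781). The dim Aqp6 probe set was nearest to Rab33a (0.783), Tas2r119 (0.727) and Lrrc75a (0.707). The arrays fall into 4 groups, so a shared group difference alone gives high values: within groups the 3 profiles nearest to Avpr2 correlated with it at 0.443, 0.429 and 0.474, and the 3 nearest to Fxyd4 at 0.689, 0.787 and 0.728.

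Of 6 other aquaporin genes on the array, only Aqp11 was called in any contrast. Aqp11, an intracellular channel of the proximal tubule, had means of 7.67 and 7.70 in SBN/y with 2 kidneys and 1, and of 6.24 and 6.10 in SBH/y. It was lower in SBH/y by -1.43 ± 0.08 log2 (adjusted p = 2.12e-13, limma) with 2 kidneys and by -1.60 ± 0.08 (adjusted p = 6.29e-15) with 1, and no SBH/y array reached the SBN/y range with either number of kidneys, where 7.62% of all probe sets had ranges apart between the strains with 1 kidney. It rests on 1 probe set, and a sequence difference between the strains under that probe set was not tested. The glycerol channel gene Aqp7, the neighbour of Aqp3, had group means between 9.31 and 9.40 and was not called. Aqp5, which lies between Aqp2 and Aqp6, had means between 2.94 and 3.01, in the Xist range.

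The lists of related genes that follow were counted with 1 probe set per gene. Of all 14217 genes, 7.16% were called after uninephrectomy in SBH/y, 0.253% in SBN/y and 6.41% on average, 11.0% between strains with 2 kidneys and 17.7% with 1, and 0.408% for the difference between the responses. The counts in each list are read beside these shares.

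Among genes of vasopressin signalling and aquaporin 2 trafficking, calls were made between the strains. Of 28 measured, 5 were called higher and 1 lower in SBH/y with 2 kidneys, and 4 higher and 1 lower with 1 kidney, with median log2 differences of 0.00 and 0.01, beside 0.01 and 0.01 for all genes. Snap23, a membrane fusion protein found on Aqp2 vesicles, was higher by 0.57 ± 0.07 (adjusted p = 1.01e-06, limma) and 0.60 ± 0.07, the vesicle motor gene Myo5b by 0.42 ± 0.06 and 0.34 ± 0.06, and Prkar2a, a regulatory subunit of protein kinase A, by 0.36 ± 0.07 and 0.38 ± 0.06. Prkar2b, another regulatory subunit, was the 1 gene lower, by -0.35 ± 0.10 and -0.54 ± 0.10; with 2 kidneys Pde4d (0.19) and Stx3 (0.26) completed the higher genes and with 1 kidney Arrb2 (0.31). These 4 are named after their values were seen. After uninephrectomy 0 of 28 were called by limma in either strain (5 and 1 with an unadjusted p under 0.05 in SBH/y and SBN/y), and averaged over strains Ezr alone was called (0.13 ± 0.04, adjusted p = 0.0384).

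Of 11 principal cell transcription factor genes, Elf3 rose (0.46 ± 0.07, adjusted p = 0.000157, limma) and Elf5 fell (-0.22 ± 0.06, adjusted p = 0.0297) in SBH/y after uninephrectomy, and 0 were called in SBN/y (1 with an unadjusted p under 0.05). The median difference of the list was -0.09 in SBH/y and 0.01 in SBN/y. Averaged over strains, Elf3 was called higher (0.26) and Elf5 lower (-0.20). Between the strains 0 were called with 2 kidneys by limma (0 with an unadjusted p under 0.05), and 3 with 1 kidney: Elf3 (0.54) and Nfat5 (0.21, named after its value was seen) higher and Ehf (-0.37) lower in SBH/y.

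Genes of sodium and potassium transport in the principal cell had medians below 0 after uninephrectomy, of -0.19 in SBH/y and -0.10 in SBN/y, where the median of all genes was 0.00 in both. None of the 10 was called within a strain by limma (6 and 2 with an unadjusted p under 0.05). Averaged over strains, Hsd11b2, which protects the mineralocorticoid receptor from glucocorticoids, fell (-0.18 ± 0.05, adjusted p = 0.0227), as did the sodium channel subunit gene Scnn1b (-0.15 ± 0.04, adjusted p = 0.0328, named after its value was seen). Between the strains, Sgk1, the kinase gene induced by aldosterone, was higher in SBH/y by 0.99 ± 0.07 with 2 kidneys (adjusted p = 6.64e-11) and 0.95 ± 0.07 with 1. Among rats with 1 kidney, Kcnj16 was lower in SBH/y than in SBN/y (-0.27 ± 0.05).

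Other FXYD genes moved in both directions. Of 8 sodium pump and FXYD genes, Fxyd5 rose (0.61 ± 0.10, adjusted p = 0.000428, limma), and Fxyd6 (-0.24 ± 0.06) and Fxyd2, the gamma subunit of the renal sodium pump (-0.19 ± 0.05, adjusted p = 0.0315), fell in SBH/y after uninephrectomy. In SBN/y 0 were called (1 with an unadjusted p under 0.05), and the median difference was -0.02 in both strains. Between the strains Fxyd6 was lower in SBH/y (-0.41 ± 0.06 with 2 kidneys and -0.47 ± 0.06 with 1), and Fxyd5 was higher with 1 kidney (0.84 ± 0.10). Averaged over strains the same 3 genes were called, Fxyd5 higher (0.30) and Fxyd6 (-0.21) and Fxyd2 (-0.14) lower. Fxyd4 had the opposite strain direction to Fxyd6.

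The list for medullary tonicity held 8 measured genes, among them Fxyd5, an FXYD gene already counted above. On it Akr1b1, the aldose reductase gene that makes sorbitol, fell in both strains: by -0.41 ± 0.11 in SBH/y (adjusted p = 0.0212, limma) and by -0.68 ± 0.11 in SBN/y (adjusted p = 0.00699). The taurine transporter gene Slc6a6 fell in SBN/y (-0.42 ± 0.09, adjusted p = 0.0339) and measured -0.14 ± 0.08 in SBH/y. Averaged over strains these 2 were called lower and Fxyd5 higher. Fxyd5 was the only gene of the list called higher after uninephrectomy, in SBH/y and on average. Its calls repeat those of the FXYD list and are not read as a sign of tonicity. The list's median difference was -0.05 in both strains. Between the strains, 2 of 8 were called higher in SBH/y with 1 kidney, Fxyd5 (0.84) and Nfat5 (0.21), and 0 with 2 kidneys by limma (2 with an unadjusted p under 0.05). Nfat5 was also counted above, among the principal cell transcription factor genes.

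Markers of other cell types moved in SBH/y after uninephrectomy beside the fall of Aqp4 and Fxyd4. Leukocyte markers were called higher for 6 of 6 (median difference 0.53), and their mean level lay between 5.45 and 5.59 on arrays with 2 kidneys and between 5.88 and 6.39 with 1. Fibroblast and smooth muscle markers rose for 5 of 6 with a median of 0.47 (6.43 to 6.79 and 6.81 to 7.34), and injured tubule markers for 5 of 6 with a median of 1.10 (6.75 to 7.01 and 7.82 to 8.66). Intercalated cell markers, of the principal cell's neighbours in the collecting duct, fell for 5 of 9 with a median of -0.20 (7.66 to 7.83 and 7.37 to 7.57), with Slc4a1 at -0.43 and Rhcg at -0.37. The intercalated list includes Aqp6, whose probe set was at background. Podocyte markers fell for 3 of 5 with a median of -0.36 (6.76 to 7.07 and 6.40 to 6.77), endothelial markers for 2 of 5, and 1 of 6 thick ascending limb and 1 of 8 proximal tubule markers fell. None of 5 distal convoluted and connecting tubule markers and neither of 2 red blood cell genes was called by limma (0 and 0 with an unadjusted p under 0.05), and of 6 urothelial and papillary markers Krt8 rose. The part of these shifts in the fall of Aqp4 and Fxyd4 was not tested.

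In SBN/y, where Avpr2 measured -0.28 and Fxyd4 -0.41 after uninephrectomy, 1 of all these markers was called after uninephrectomy, Havcr1. The mean level of the leukocyte list lay between 5.56 and 5.63 with 2 kidneys and between 5.60 and 5.89 with 1, that of the fibroblast list between 6.38 and 6.55 and between 6.56 and 6.65, and that of the intercalated list between 7.67 and 7.73 and between 7.61 and 7.75. The injured tubule list lay between 6.53 and 6.67 with 2 kidneys and between 6.79 and 7.07 with 1, with no overlap, and 3 of its 6 genes had an unadjusted p under 0.05. Endothelial markers had a median difference of -0.12, with 5 of 5 below 0 (8.12 to 8.25 and 8.03 to 8.15), and podocyte markers of -0.15 with 4 of 5 below 0 (6.74 to 6.99 and 6.67 to 6.84). The part of these shifts in the differences of Avpr2 and Fxyd4 was not tested. The list of 10 principal cell markers, 5 of which are among the 7 genes, had a mean level between 7.63 and 7.81 with 2 kidneys and between 7.46 and 7.68 with 1. In SBH/y it lay between 7.76 and 7.93 with 2 kidneys and between 7.32 and 7.69 with 1, with no overlap.

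Beside the strain differences of Aqp2, Aqp3 and Fxyd4, both red blood cell genes were lower in SBH/y, with a median difference of -0.67 with 2 kidneys and -0.66 with 1. The urothelial and papillary list had mean levels between 5.28 and 5.38 in SBN/y and between 4.83 and 5.17 in SBH/y with 2 kidneys, with 1 of 6 higher and 1 lower. Proximal tubule markers were higher for 3 and lower for 1 of 8 with 2 kidneys, at mean levels between 9.93 and 10.17 on all 23 arrays. Of 5 distal convoluted and connecting tubule markers, 1 was called lower in SBH/y with either number of kidneys, Calb1 (-0.49 and -0.52). With 2 kidneys, 1 of 6 thick ascending limb markers was called lower, and of 9 intercalated cell markers 1 was called higher and 1 lower. With 1 kidney, leukocyte markers were called higher in SBH/y than in SBN/y for 5 of 6 (median difference 0.34), fibroblast and smooth muscle markers for 6 of 6 (0.44) and injured tubule markers for 5 of 6 (1.10). Intercalated cell markers were called lower for 5 of 9 (median -0.20) and thick ascending limb markers for 3 of 6 (-0.15). Endothelial markers were called lower for 2 of 5 and podocyte markers for 1 of 5. Of the 5 principal cell markers that are not among the 7 genes, none was called between the strains by limma (0 with 2 kidneys and 1 with 1 kidney had an unadjusted p under 0.05). The part of these shifts in the strain differences was not tested.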

How the data were processed

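RNA of 23 kidney samples of male rats was measured on 1 Affymetrix array each. The deposited values are log2 expression values per probe set, for which the submitters' processing notes name GCOS and RMA without a version. RMA corrects background, quantile-normalizes arrays and summarises probes, so a change in total mRNA could not be seen. The file holds 31099 probe sets. After removal of 57 controls, 20826 had 1 gene symbol, 436 several and 9780 none. A single limma model (limma 3.58.1 in R 4.3.3) with 4 group means gave every comparison, with two-sided tests and Benjamini-Hochberg adjustment over 31042 probe sets. It was checked on simulated data.

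The 7 genes and the gene lists were chosen with earlier results of these data known. The rule named all 7 genes, up to 3 genes of each list by smallest p, all genes of lists with at most 6 measured, and the 3 genes with the most similar profile. Nothing in the labels beyond the sample names shows that samples are separate animals, so p-values cover only the spread between samples, whose number limits precision. The alternatives were the replicate number as a block, a GAPDH covariate, a second quantile normalization, a trended and robust variance, removal of dim probe sets, models of only the compared groups, 1 probe set for each gene, a gene's next probe set, and each array left out in turn.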

Additional observations from a re-analysis of the deposited data

Results flagged for a closer look

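In 44 sets of 1 group and 1 probe set, 2 held an array that stood apart from the rest of its group, and chance marks about 1 set in 20. For Aqp2 in SBN/y with 2 kidneys, replicate 3 read 10.8, and the nearest of the other 4 arrays read 10.30. Without it the strain difference with 2 kidneys was 0.51 (adjusted p = 0.00309, limma) and the uninephrectomy difference in SBN/y was -0.26 (adjusted p = 0.676). For Aqp1 in SBN/y with 1 kidney, replicate 4 read 11.3 and the nearest other array 11.19, and without it the uninephrectomy difference was -0.08 (adjusted p = 0.850).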

How the results depend on the processing

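Over all alternatives and left-out arrays, the 11 called differences of single genes kept direction and call in 311 of 330 fits and lost the call in 19. The 31 others kept direction and side in 886 of 928, passed the threshold in 14 and changed sign in 28. The number of called genes moved from 2 to 1 in SBH/y and from 0 to 1 in SBN/y after uninephrectomy with only the groups compared, and from 3 to 1 for the averaged response with the next probe set, where Avpr2 measured -0.02 (adjusted p = 0.943). With each array left out in turn it ranged from 1 to 3 and from 0 to 1 after uninephrectomy in SBH/y and SBN/y, from 1 to 3 between strains with 2 kidneys, and from 3 to 4 for the averaged response. With the GAPDH covariate the counts were 2, 0, 4, 3, 0 and 2 for SBH/y, SBN/y, strain with 2 kidneys, strain with 1, the interaction and the average. Differences near 0 changed sign: Aqp1 in SBN/y to 0.015 and the Aqp3 interaction to 0.00014 with the GAPDH covariate, Aqp1 between strains with 1 kidney to -0.0040 and the Avpr2 interaction to -0.0021 with repeated quantile normalization, and the Avpr2 interaction to -0.028 with the next probe set. With single arrays left out, sign changes occurred for Aqp4 between strains with 1 kidney (-0.15 to 0.049), for the interactions of Aqp3 (-0.075 to 0.11), Avpr2 (-0.020 to 0.081) and Fxyd4 (-0.023 to 0.13), and for the averaged Aqp6 (-0.0023 to 0.029). The cause was not tested. Pairing by replicate number was not seen (33 same-numbered pairs, residual correlation -0.269 to 0.259, median 0.036, against -0.009 for other pairs). Such values cannot exclude it. With the replicate block the counts were 3, 0, 3, 3, 0 and 3, with Avpr2 in SBH/y at -0.25 (adjusted p = 0.0479, limma). Fits with only the groups compared give no value for the interaction or the average, and the dim filter left out Aqp6. Dim signal limits Aqp6 and the other probe sets of Aqp4 and Avpr2.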
